A study of Rattus norvegicus with 4 samples.

Results

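The sodium-potassium pump carries a catalytic alpha subunit, a glycosylated beta subunit and, in many tissues, a small FXYD protein. The genes described here are 3 beta subunits (Atp1b1, Atp1b2 and Atp1b3) and 4 FXYD regulators (Fxyd1, Fxyd5, Fxyd6 and Fxyd7). Every non-control probe whose gene name on the array was one of these names was taken, which gave 10 probes of 41012, and 7 gene names of 35658. The 7 genes were chosen by their signals and their ratio of mucosa over bulb on these same arrays. The ratios of these 7 genes are therefore given as a description, without a test.

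Olfactory ensheathing cells are glia that accompany olfactory axons from the nasal lining to the brain. Male Fischer rats gave cultures of olfactory mucosa and of olfactory bulb, grown by 1 common protocol, and these were compared on 4 Agilent 2-colour arrays. Each array held 1 pair of samples, with mucosa cDNA in Cy5 and bulb cDNA in Cy3, and the 4 arrays are biological replicates per the labels. Polyadenylated RNA was turned into cDNA that a global PCR amplified, and 250 ng of cDNA was labelled per channel. The labels give no age, passage or purity of the cultures. Since the dyes were never exchanged, dye and tissue cannot be told apart at any single probe.

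The pump exports sodium and imports potassium at the cost of ATP, and glia use it to clear potassium released by active axons. The beta subunit is needed for the alpha subunit to fold and reach the membrane, and it also acts in cell adhesion. FXYD proteins are single-span membrane proteins that adjust the affinity of the pump for its ions. Atp1b2 is also known as the adhesion molecule on glia, Fxyd1 as phospholemman and Fxyd5 as dysadherin.

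The 60-base probes of Fxyd5, Atp1b2 and Fxyd1 are shown because the Fxyd5 pair reads 1 stretch from both strands and because the probes of Atp1b2 differ among themselves. The sequences are those of the array design, 5′ to 3′, with capitals for the 41 bases over which the Fxyd5 probes are complementary.
Fxyd5 A_42_P685287: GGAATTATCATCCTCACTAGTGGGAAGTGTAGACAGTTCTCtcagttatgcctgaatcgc
Fxyd5 A_44_P397085: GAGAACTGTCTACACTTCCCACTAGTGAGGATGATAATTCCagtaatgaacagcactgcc
Atp1b2 A_44_P452240: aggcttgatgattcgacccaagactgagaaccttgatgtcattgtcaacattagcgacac
Fxyd1 A_42_P572123: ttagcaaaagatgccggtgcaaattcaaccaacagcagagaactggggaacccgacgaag
In the rn4 build the Fxyd5 probes lie on chromosome 1 at 86076539 to 86078888 (minus strand) and at 86076558 to 86078907 (plus strand). The Fxyd1 probe lies on the same chromosome at 86095744 to 86096982 (minus strand). These intervals are longer than the probes, so each of these probes is split in the genome. The Atp1b2 probe shown lies on chromosome 10 at 56421694 to 56421753 (minus strand) and starts at base 811 of its transcript. Exon and UTR boundaries were not used here.

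All 10 probes were well above background in both channels on all 4 arrays. Over the array, 36746 probes were tested with limma, and 2405 passed a Benjamini-Hochberg adjusted p of 0.05 (6.54%), 1150 higher in mucosa (3.13%) and 1255 lower (3.42%). Median spot signal was 567 to 842 in the mucosa channel and 342 to 382 in the bulb channel, so raw signals favour mucosa and ratios are given after dye normalization. Of the 10 probes, 4 were called lower in mucosa (the 3 of Atp1b2 and that of Fxyd6) and 0 higher, and since the set was built from this contrast nothing is read from that count. Mucosa and bulb levels did not overlap over the 4 arrays at 7 of the 10 probes, against 20.7% of tested probes. The ratio had 1 sign on all arrays at 7 probes, against 33.4% of tested probes. The median ratio of the 10 probes was -0.47 on the log2 scale and that of all tested probes was 0.00.

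Among the beta subunits, the mucosa over bulb ratio was far below 0 at Atp1b2 and near 0 at Atp1b1 and Atp1b3. Atp1b2 has 3 probes along its transcript, and all lay below 0 on every array. At A_43_P11439, which starts at base 1737, the spot signals in mucosa were 499, 469, 186 and 225 on arrays 1 to 4. The bulb signals there were 4007, 3713, 5331 and 5528, so that the groups were far apart. The log2 ratios were -4.19, -4.15, -5.55 and -5.28, with a mean of -4.79 ± 0.73 (SD, n = 4), a 27.7-fold lower level in mucosa.

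The other Atp1b2 probes gave smaller differences. At A_44_P452240, the probe shown above, the mucosa signals were 754, 223, 123 and 569 and the bulb signals were 803, 723, 1130 and 1201. The mucosa values spread widely while the bulb values lay close together, and the log2 ratios were -1.28, -2.85, -3.79 and -1.78 (mean -2.43 ± 1.12, SD, n = 4). At A_43_P10996, which starts at base 2849, the ratios were -2.77, -2.44, -2.43 and -2.34, with a mean of -2.50 ± 0.19 (SD, n = 4) or 5.65-fold. This probe was the most even of the 3, with normalized bulb levels between 10.40 and 10.46 on the log2 scale.

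The probes of Atp1b2 therefore shared a direction but not a size. Within each array the ratio at the middle probe was below that at the first probe, with a mean difference of -2.36 ± 1.01 on the log2 scale (SD, n = 4), and below that at the last probe, with a mean difference of -2.29 ± 0.86 (SD, n = 4). The order held on 4 of 4 arrays in both cases. The cause of this difference between probes was not tested.

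Atp1b1, the beta subunit most widely used in brain and kidney, had 1 probe, with log2 ratios of 0.17, 0.36, 0.51 and -1.04. The mean was 0.00 ± 0.71 (SD, n = 4). The first 3 arrays were above 0 and the fourth below it, where the mucosa signal was 111 against 278 to 364 on the others, and the channel levels overlapped. Without replicate 4 the mean was 0.34, and without replicate 3 it was -0.17, so no direction is given.

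Atp1b3, a beta subunit with a wide tissue distribution, also had 1 probe, which was bright in both cultures. Its ratios were 0.42, 0.22, -0.67 and -0.71, with a mean of -0.18 ± 0.59 (SD, n = 4). Replicates 1 and 2 lay above 0 and replicates 3 and 4 below it, and the levels overlapped. Among 6 macrophage markers the ratio of Cd68 was 1.84, 0.75, -2.34 and -3.48 on the same arrays, that of Cd14 was 2.83, 3.36, -1.40 and 0.07, and that of Aif1 was 0.25, 0.31, -0.66 and -0.53. Itgam had 1.47, -0.27, -1.28 and -3.88, Csf1r had 0.56, -0.38, -2.50 and -1.75 at its brightest probe and 0.01, 0.40, 0.53 and 0.13 at its other probe, and Cx3cr1 had -0.30, 0.61, -0.88 and -0.33. The median mucosa signal over all probes was 842 and 839 on arrays 1 and 2, and 567 and 598 on arrays 3 and 4. The part of macrophages, or of this difference in signal, in the ratio of Atp1b3 was not tested. With median centring in place of loess the mean of Atp1b3 was 0.20, so its direction is not given either.

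Set against the other beta subunits within each array, the ratio of Atp1b2 at A_43_P11439 minus that of Atp1b3 was -4.61, -4.37, -4.88 and -4.57 on the log2 scale. The mean difference was -4.61 ± 0.21 (SD, n = 4). Against Atp1b1 it was -4.79 ± 0.85 at this probe (SD, n = 4). At the first Atp1b2 probe the difference from Atp1b1 was -2.42 ± 1.62, with array 4 at -0.74, and at the last -2.49 ± 0.80 (SD, n = 4). At the first Atp1b2 probe the difference from Atp1b3 was -2.24 ± 1.02 and at the last -2.31 ± 0.75 (SD, n = 4), below 0 on 4 of 4 arrays at each. As the genes were chosen by these same ratios, the differences among the beta subunits are a description only. Levels of different probes cannot be ranked on an array.

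**Figure D1:**
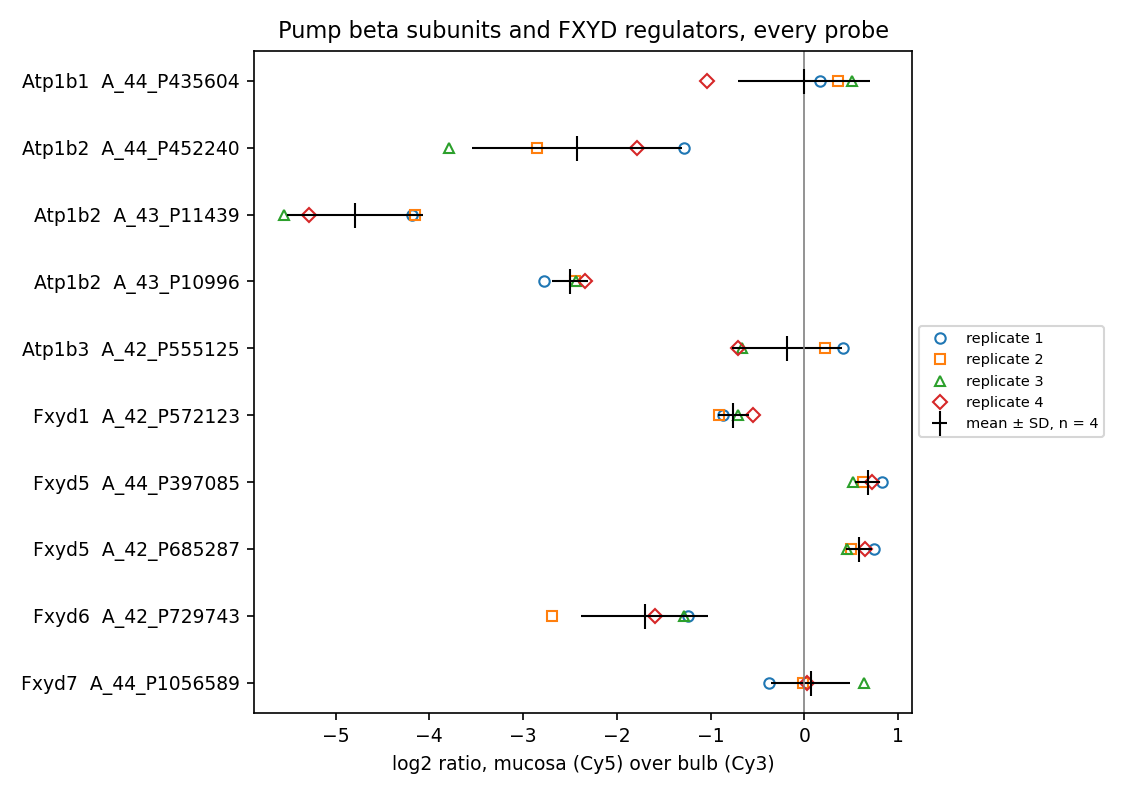
Log2 ratio of mucosa (Cy5) over bulb (Cy3) at each of the 10 probes, with 1 symbol per array and a bar for the mean ± SD (n = 4). The 3 Atp1b2 probes and the probes of Fxyd6 and Fxyd1 sit left of 0 on every array, Fxyd1 closest to it. Both Fxyd5 probes sit right of 0, and Atp1b1, Atp1b3 and Fxyd7 straddle it.

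The FXYD regulators were split in direction. Fxyd6, a regulator found in the nervous system and inner ear, had mucosa signals of 421, 434, 485 and 387 and bulb signals of 443, 1222, 723 and 727. After dye normalization the log2 ratios were -1.24, -2.69, -1.28 and -1.59, with a mean of -1.70 ± 0.68 (SD, n = 4) or 3.26-fold lower in mucosa. Replicate 2 had the lowest ratio and the highest bulb signal, and the normalized levels of the groups did not overlap. Its probe lies on chromosome 8 at 48371770 to 48371828 in rn4.

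Fxyd1, phospholemman, is a target of protein kinases in heart and muscle and is also found in brain. It had ratios of -0.87, -0.91, -0.71 and -0.54, with a mean of -0.76 ± 0.17 (SD, n = 4), a 1.69-fold lower level in mucosa. Here the raw mucosa signal, 14920 to 20208, was above the raw bulb signal, 10393 to 15033, on every array. The sign therefore rests on the dye normalization. With median centring in place of loess the mean was -0.42 ± 0.12 (SD, n = 4) and the ratio stayed below 0 on each array, from -0.59 to -0.34, while the median of the 856 probes of like brightness was 0.29.

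Fxyd5, dysadherin, a regulator linked to weaker cell adhesion in epithelia, lay above 0 at both probes on all arrays, as no other of the 7 genes did. At the coding-strand probe A_42_P685287 the ratios were 0.74, 0.50, 0.45 and 0.65, a mean of 0.59 ± 0.14 (SD, n = 4). At A_44_P397085, on the opposite strand, they were 0.83, 0.63, 0.52 and 0.72, a mean of 0.68 ± 0.13 (SD, n = 4), 1.60-fold higher in mucosa. The mucosa levels lay above the bulb levels without overlap at both. The probes kept the same order of arrays and differed by 0.09 ± 0.03 (SD, n = 4). They share 41 complementary bases and are not independent measurements of the gene.

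Fxyd7, a regulator mainly known from brain, had ratios of -0.38, -0.02, 0.64 and 0.03, with a mean of 0.07 ± 0.42 (SD, n = 4). Arrays fell on both sides of 0 and the levels overlapped. Without replicate 3 the mean was -0.12 and with median centring it was 0.33, so it has no settled direction.

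**Figure D2:**
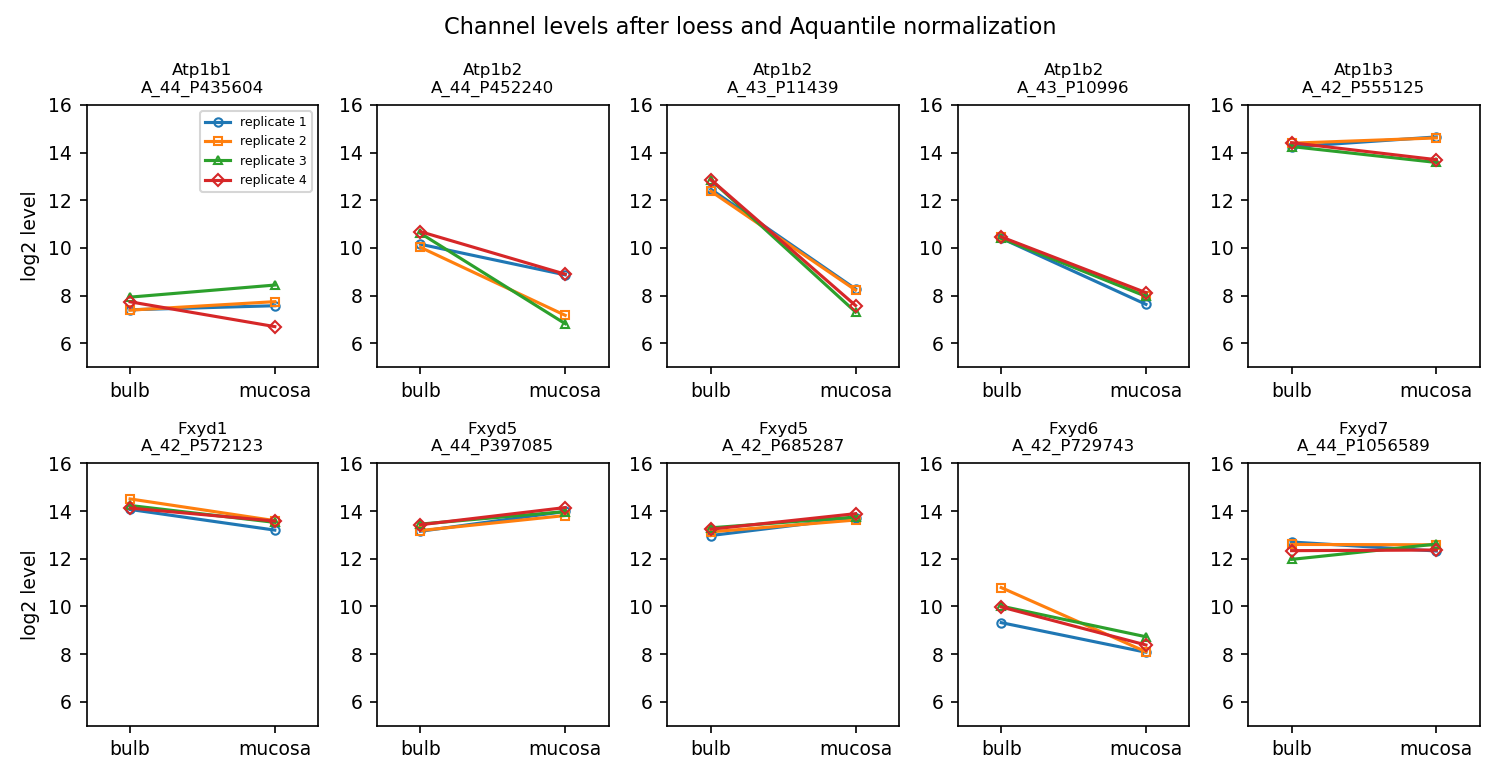
Normalized log2 level of each probe in bulb and mucosa, joined by a line for each of the 4 arrays. The lines fall steeply from bulb to mucosa at the Atp1b2 probes and at Fxyd6, and fall slightly at Fxyd1. They rise slightly at both Fxyd5 probes and cross at Atp1b1, Atp1b3 and Fxyd7. Heights of different panels are not comparable.

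Apart from Fxyd4 on chromosome 4, the FXYD genes lie in 2 groups in the genome, and the neighbours did not share a ratio. The probes of Fxyd5, Fxyd7, Fxyd1 and Fxyd3 fall within 37.3 kb of chromosome 1 in rn4. Across that stretch Fxyd5 was above 0, Fxyd1 below 0 and Fxyd7 near 0, while Fxyd3 had a mean of -0.51 ± 1.18 (SD, n = 4). Within each array Fxyd1 was below the Fxyd5 coding-strand probe, with a mean log2 difference of -1.34 ± 0.21 (SD, n = 4). On chromosome 8 the probes of Fxyd6 and Fxyd2 lie within 13.6 kb. The ratio of Fxyd6 was below that of Fxyd2 on each array, with a mean difference of -2.93 ± 0.67 (SD, n = 4).

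Other genes of the pump and the FXYD family were listed separately: Atp1a4, Atp1b4, the other FXYD genes, the related proton pumps and the Nkain proteins that bind the pump. Of these 12 genes 9 were tested, and 0 passed the limma test with Benjamini-Hochberg adjustment, while 2 had an unadjusted p under 0.05. The median ratio of the list was 0.05 and that of all tested probes was 0.00. Atp1a4, a pump gene known from sperm, had a mean of -0.87 ± 1.23 (SD, n = 4). Of the FXYD genes, Fxyd2, the gamma subunit of the kidney pump, was above 0 on all arrays at 1.95, 0.65, 0.64 and 1.66. Its mean was 1.23 ± 0.68 (SD, n = 4; limma with Benjamini-Hochberg adjustment, adjusted p = 0.069). Fxyd4 had a mean of 0.65 ± 0.26 and Fxyd3 of -0.51 ± 1.18 (SD, n = 4), the latter with replicate 3 at -2.15 and replicate 4 at 0.63.

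Genes that work beside the pump, such as ion exchangers, potassium channels, transmitter transporters that spend the sodium gradient, calcium pumps and hormone-linked regulators, made up a list of 39. Of the 37 tested, 3 rose in mucosa, 3 fell and 31 did not pass, against 3.13% and 3.42% of tested probes, and the median was -0.04. Slc6a6, the sodium-coupled taurine transporter, rose by 4.61 ± 0.23 on the log2 scale (SD, n = 4; limma with Benjamini-Hochberg adjustment, adjusted p = 0.00131). Aqp1, a water channel, rose by 2.56 ± 0.61 (adjusted p = 0.00693), from 1.87 to 3.34 over the arrays. Pln, phospholamban, which restrains the calcium pump of muscle, rose by 3.03 ± 1.44 (adjusted p = 0.027), with replicate 1 at 0.99 and the others between 3.16 and 4.34.

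Another 3 partner genes fell, all in the same limma fit with Benjamini-Hochberg adjustment. Slc1a3, the glial glutamate transporter, fell by 1.85 ± 0.83 (adjusted p = 0.032), and its other probe had a mean of -0.81 ± 0.26 that did not pass. Atp2b4, a plasma membrane calcium pump, fell by 1.91 ± 0.81 (adjusted p = 0.027). Nr3c2, the mineralocorticoid receptor, fell by 1.60 ± 0.42 (adjusted p = 0.017), and its other probe had a mean of -1.64 ± 1.05 (adjusted p = 0.071).

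Some of these calls were lost when 1 array was left out. Leaving out any of replicates 2, 3 and 4 ended the call of Pln (adjusted p up to 0.10, limma with Benjamini-Hochberg adjustment). Leaving out any of replicates 1, 2 and 4 ended those of Atp2b4 (up to 0.10) and Nr3c2 (up to 0.083), and leaving out any array ended that of Slc1a3 (up to 0.11). With the deposited log ratio the calls of Pln, Atp2b4 and Slc1a3 also ended, and with a trended robust variance those of Atp2b4, Slc1a3 and Nr3c2. The calls of Slc6a6 and Aqp1 held without each array in turn. Of partner genes that did not pass, Stk39, a kinase of chloride cotransporters, had a mean of -1.52 ± 2.00 and Slc8a3, a sodium-calcium exchanger, of 1.13 ± 0.98 (SD, n = 4).

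**Figure D3:**
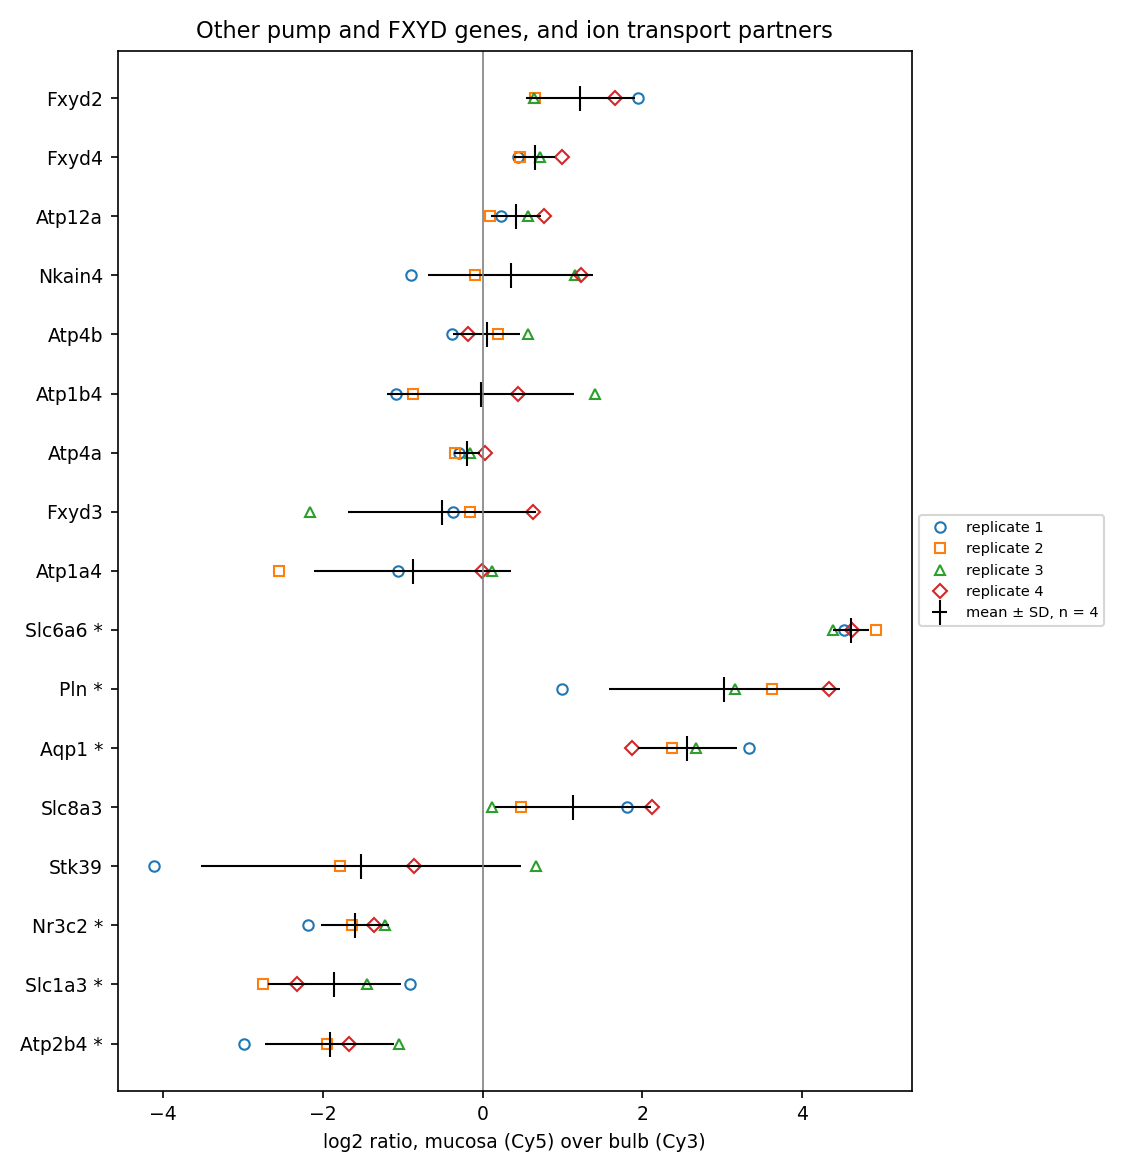
Log2 ratio of mucosa over bulb at other pump and FXYD genes and at the named partner genes, with 1 symbol per array and a bar for the mean ± SD (n = 4). An asterisk marks an adjusted p under 0.05: Slc6a6 sits near 4.6 on every array, and Fxyd2 lies above 0 on all arrays without passing.

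Genes whose levels followed a member most closely were sought by Pearson correlation over the 8 channel values (4 arrays, both channels). These values share arrays and amplification and hold the difference between cultures, so the coefficients are a description. For Atp1b2 at A_43_P11439 they were Scd2 (r = 0.994), a fatty acid desaturase, Ptn (0.993), the growth factor pleiotrophin, and Cox6b2 (0.992), a respiratory chain subunit. For Fxyd5 at the opposite-strand probe A_44_P397085 they were Itgb3 (0.990), an integrin subunit, Krt8 (0.989), a keratin, and Rock2 (0.988), a kinase of the actin cytoskeleton. The coefficient ignores the size of a change. The mean log2 ratio was 0.68 at this Fxyd5 probe and 1.83, 2.64 and 2.55 at Itgb3, Krt8 and Rock2. It was -4.79 at A_43_P11439 and -1.41, -3.91 and -4.72 at Scd2, Ptn and Cox6b2.
For Fxyd6 the closest were Trdn (0.984), Far2 (0.977) and Hpgds (0.974), and for Fxyd1 they were Ccdc92 (0.984), Atp6ap2 (0.982) and Cfap36 (0.980). For Atp1b1 they were Fbxo10 (0.977), Hnrnpr (0.971) and Abhd13 (0.971), which shared with it a low ratio on array 4.

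Markers of the labelled cell type and of others differed between the cultures, and their counts stand beside 3.13% of all tested probes called higher and 3.42% called lower. Of 11 markers of ensheathing and Schwann glia all were well above background in both cultures, and 6 fell in mucosa while 0 rose (1 to 5 fell with 1 array left out). Their median ratio was -1.27, and their mean level was 9.65 to 10.13 in mucosa and 11.11 to 11.16 in bulb on the log2 scale. Fabp7 fell by 2.94 ± 0.49 (SD, n = 4), and its call held without each array. Of 10 neuron markers 3 fell and 0 rose (2 to 3 fell with 1 array left out). The mean level of the list was 7.83 to 8.65 in mucosa and 8.74 to 9.16 in bulb. Those that fell were the neurofilament genes Nefl (-2.78), Nefm (-3.06) and Nefh (-1.54). The other neuron markers had means from -0.69 (Map2) to 0.87 (Syt1) at their brightest probes and were not called there. A dimmer Map2 probe was called lower, at -1.45. Of 9 astrocyte markers 2 fell and 0 rose, Gfap and Slc1a3, and neither call held when any 1 array was left out (7.95 to 8.45 and 8.26 to 8.62).

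Of 5 smooth muscle and pericyte markers 3 rose (Tagln, Cnn1 and Pdgfrb) and 0 fell, against 3.13% and 3.42% of all tested probes (11.75 to 12.24 and 10.75 to 11.54). Rgs5 went the other way without being called, with ratios of -1.48, 0.33, -4.46 and -4.20 and a mean of -2.45 ± 2.29 (SD, n = 4). Des, also not called, had a mean of 0.23 ± 0.30 (SD, n = 4). The call of Pdgfrb ended when any 1 array was left out. Of 9 fibroblast markers 3 rose and 2 fell (13.04 to 13.25 and 12.38 to 13.22), with 3 higher and 1 to 2 lower when 1 array was left out. Of 8 oligodendrocyte markers 1 rose and 3 fell (10.21 to 10.503 and 10.64 to 10.79), and the calls of Mbp and Cldn11 ended when any 1 array was left out, so that 0 to 1 fell. Of 7 epithelial markers 1 rose and 1 fell, also with any 1 array left out (9.15 to 9.68 and 9.08 to 9.22). Of 5 endothelial markers 1 fell, Cdh5, and its call ended when any 1 array was left out (8.07 to 8.94 and 8.05 to 8.43). Of 6 macrophage markers 0 passed in limma, and 0 had an unadjusted p under 0.05 (8.83 to 10.12 and 8.90 to 10.48). Their ratios on each array are given above beside Atp1b3, and of these markers only Cd68 and Aif1 had its sign on every array. Genes outside the macrophage list had these signs too. Among them were the ensheathing marker Frzb (1.08, 1.33, -1.80 and -2.15) and the partner gene Sgk1 (0.48, 0.69, -1.16 and -0.28).

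Krt19 and Pecam1, defining markers of epithelium and endothelium, were too dim to be tested: Krt19 was well above background on 1 mucosa and 2 bulb arrays, and Pecam1 on 1 array in each channel. Acta2, Myh11 and Ptprc were not matched to a probe. In bulk cultures fewer cells of a type and less RNA per cell cannot be told apart, and the part of these cell types in the pump gene ratios was not tested.

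The ratios of the 7 genes were recomputed under 17 alternative settings of background, normalization, filter and replicates. At 7 of the 10 probes the mean kept 1 sign in every setting that kept the probe. These were the probes of Atp1b2, Fxyd1, Fxyd5 and Fxyd6. Settings that changed only the filter, the variance model or the pairing, and Aquantile normalization, leave the mean as it is by construction. The mean ranged from -5.18 to -4.54 for Atp1b2 at A_43_P11439, from -2.86 to -1.97 at A_44_P452240, and from -2.78 to -2.34 at A_43_P10996. For Fxyd6 it ranged from -1.87 to -1.37 and for Fxyd1 from -0.83 to -0.42. For Fxyd5 it ranged from 0.53 to 0.89 at the coding-strand probe and from 0.62 to 0.99 at the other.

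**Figure D4:**
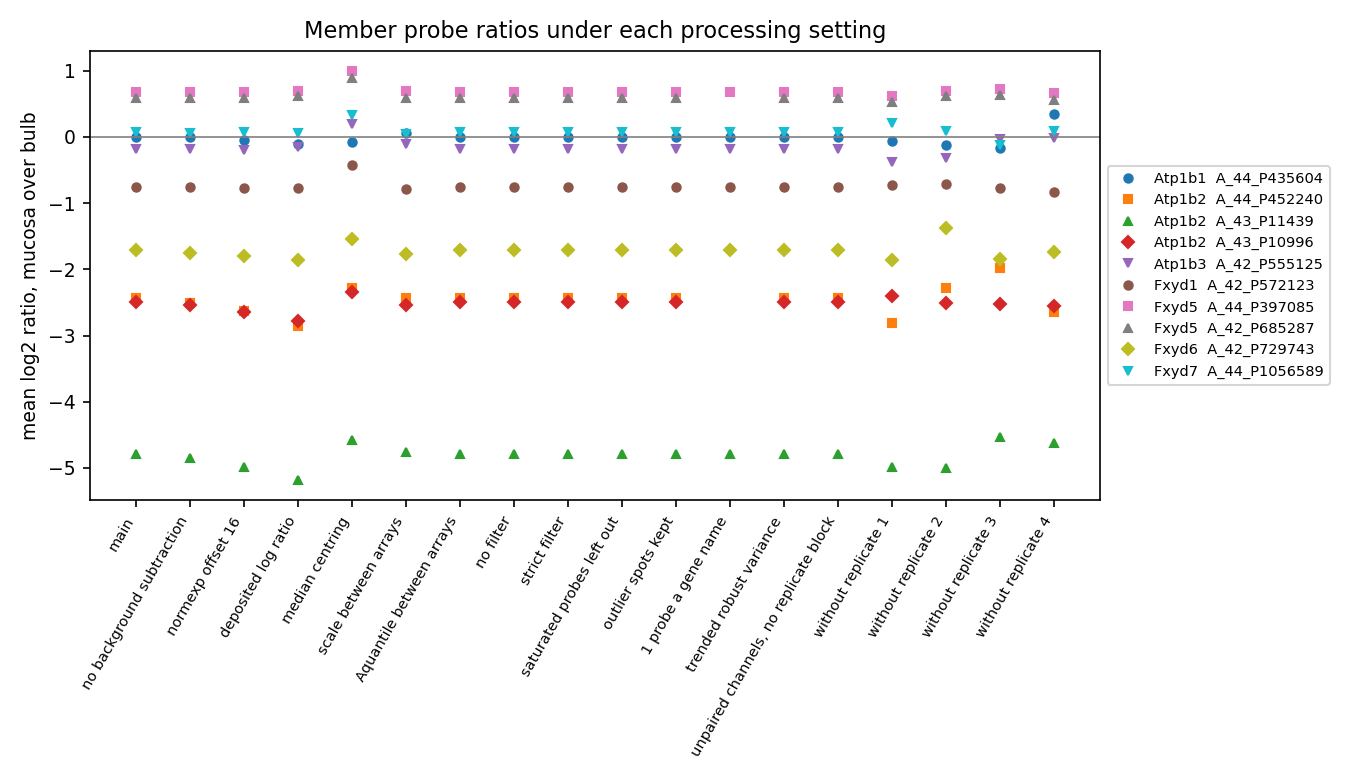
Mean log2 ratio of mucosa over bulb at each of the 10 probes (symbols) under each processing setting along the horizontal axis. The Atp1b2 probes lie below -1.9 and both Fxyd5 probes above 0.5 in every setting shown, while Atp1b1, Atp1b3 and Fxyd7 move across 0.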

How the data were processed

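The deposited scanner files hold linear intensity values for spot mean and local background per channel, without normalization, per the file headers. The deposited ratio is the log10 of processed Cy5 over Cy3, and on each array the deposited value table equals those log10 ratios at 45018 features (column medians 0, 0, 0 and 0.000422). The headers name Agilent Feature Extraction 10.5.1.1 and build rn4, and the submitters' processing notes name version 9.1. Between 82.8% and 91.1% of spots were well above background and 0 were saturated; 4 arrays limit the precision.

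Background was corrected by normexp (offset 50) with limma 3.58.1 (R 4.3.3), followed by within-array loess, with control and outlier spots left out and spots of 1 probe averaged. Probes entered the test when 3 or more arrays had, in 1 channel, a share of 0.5 or more of the spots well above background, which left 36746 probes and removed 4266. The log2 ratio, the difference within a pair, was tested against 0 with lmFit and eBayes and Benjamini-Hochberg adjustment at 0.05. On simulated ratios the fit recovered 39% of 100 probes changed by 2 on the log2 scale and 79% of 100 changed by 4, with 2 false calls. Far fewer probes were changed there than the 2405 called in the data. The SD of each probe over the 4 arrays was also taken as its true SD. These shares are therefore not the sensitivity of the fit on the data. A gene that did not pass may still differ between the cultures. Channel levels followed loess and Aquantile. Beyond the 7 genes, a rule set the other named genes. It took the tested genes of the pump list, and up to 8 called and 2 not called partner genes of largest ratio. It also took the 3 genes most like each of 5 members, and up to 3 called markers per list. Counts over other named genes cover them all, though the text does not name each, and it names some further list genes. A gene with several probes stands by its brightest tested probe. Array names were matched to a RefSeq table of the GRCr8 assembly. Some genes of the planned lists are not reported here, and list counts leave them out. The members and lists were chosen with earlier results of these data known. Python 3.11.15, pandas 2.3.3 and matplotlib 3.10.9 were used. Alternatives were other background corrections, median centring, scale and Aquantile normalization, other filters, the deposited ratio, 1 probe per gene name, a trended robust variance, unpaired channels and each replicate left out.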

Additional observations from a re-analysis of the deposited data

Results flagged for a closer look

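Of 60 probes checked for 1 array far from the other 3 (Dixon's gap over range above its critical value), 8 had such an array, and chance gives about 1 in 20. None was a probe of the 7 genes. The value apart was -1.04 on array 3 for Sox10 and 2.83 on array 4 for Thy1. On array 4 it was -1.47 for Fbxo10, -1.18 for Hnrnpr and -1.90 for Abhd13, which were chosen for levels that follow Atp1b1. On array 2 it was -3.04 for Ccdc92 and -1.57 for Cfap36, chosen for Fxyd1, and -1.95 for Hpgds, chosen for Fxyd6.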

How the results depend on the processing

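Over the array 2405 probes were called, against 1042 with a trended robust variance, 3609 without the replicate block (channels as unpaired samples) and 616 to 1230 with 1 replicate left out. With median centring 1624 were higher and 1151 lower, 58.5% of calls higher against 47.8% with loess, and with the trended variance 62.6% were higher. Of the other pump and FXYD genes, 0 were called, 1 with median centring (Fxyd2) and 2 without the replicate block (Fxyd2 and Fxyd4). Of the partner genes 6 were called, 3 with the deposited log ratio, 3 with the trended variance, and 2 to 4 with 1 replicate left out. Of 167 values of the 10 probes under alternatives, 163 moved by less than 1 SD and 0 changed the sign of a called ratio. The 4 that moved more were both Fxyd5 probes and Fxyd1 with median centring, and Atp1b2 at A_43_P10996 with the deposited ratio. Settings that changed only the filter, the variance model or the pairing, and Aquantile normalization, could not move a mean. Leaving out 1 array could not move it by 1 SD. Much of the count of 163 was therefore fixed in advance and is no measure of stability. Of 841 values of other named genes 759 stayed on their side of the threshold, 76 lost the call and 6 gained it. A change of sign was counted as a reversal only where a value was called, and there were 0 of these. Changes of sign between values that were not called are among the 759. The causes were not tested. The slide was not run as a block because all arrays shared 1 slide and 1 scan time.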

Other observations

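The agreement of the opposite-strand Fxyd5 probes was also seen elsewhere on the array. Among tested probes, 673 pairs were complementary over at least 40 bases. Their mean ratios correlated across pairs with r = 0.952, and 638 pairs differed by under 0.5 on the log2 scale, with a median difference of 0.12. Of the 138 pairs with a ratio of at least 1 in size at either probe, 136 had the same sign at both. The Fxyd5 difference of 0.09 lay at the 38.8 percentile of these differences.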
